A study of Homo sapiens with 5 samples.

Results

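The RRBS data were examined at 10 genes that mark and maintain the pluripotent state: POU5F1, NANOG, SOX2, LIN28A, LIN28B, SALL4, DPPA2, DPPA4, ZFP42 and TDGF1. Their windows were those of 1000 bases that the deposited table annotated with the symbol of a member, or that overlapped the gene with 1500 bases on both sides, which gave 90 of 288391 windows for 10 genes. The rule did not use any methylation value. The cells were human iPSCs of the line 201B7, wild type by the labels, and the groups were 0.1% DMSO as the vehicle control, 1 nM etoposide (a topoisomerase II inhibitor), 1 µM propyl gallate (an antioxidant), 1 µM theophylline (a methylxanthine) and 10 nM 5-aza-dc (a DNA methyltransferase inhibitor), each for 48 h. The paper's assay used 201B7 cells with a transgene for a fluorescent methyl-CpG-binding domain. Its RRBS methods do not state whether these cells were used. RRBS cuts the genome with a restriction enzyme at CCGG sites, treats the fragments with bisulfite and counts the cytosines of CpG sites that stayed unconverted, so the β-value of a window is the share of its cytosine calls that were methylated. A single line was used with 1 library per group, so the spread between replicates is unknown for every difference below, and all 4 chemicals were compared with the same vehicle control library.

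POU5F1, SOX2 and NANOG are the transcription factors at the centre of the pluripotency network, and the other members act with them or are used as markers of the state. In general, CpG islands at gene starts are kept free of methylation where the gene is in use, CpG sites in gene bodies and between genes are mostly methylated, and the promoters of several of these genes are known to gain methylation when pluripotent cells differentiate. A low β-value at a start is no measure of expression, which RRBS does not read.

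The levels of the members were of a few kinds and were similar in the 5 libraries. Starts of SALL4, DPPA4 and LIN28A and the island of SOX2 had at most 2.86% methylation in every library, as had the starts that RefSeq gives for POU5F1, LIN28B and TDGF1. The start of DPPA2 was methylated at 73.7% to 81.6%. The start of ZFP42 was intermediate, with 60.9% in the vehicle control, 44.3% after propyl gallate and 37.2% after 5-aza-dc, and it was the only member window called lower than the control after any chemical. Only 1 other member window was called, a window next to the start of DPPA2 that was higher after propyl gallate.

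The 250 bases before the start are shown for the members with a promoter sequence at hand, which POU5F1, LIN28A and SALL4 lacked. These stretches differ widely in CpG density. The sequences are those of RefSeq on GRCh38.p14, from a promoter table that matched 7 of the 10 members, and are written 5′ to 3′ on the strand of the gene with each CG dinucleotide in capitals. They lie at chr4:187995521-187995770 (ZFP42, plus strand), chr3:109316518-109316767 (DPPA2, minus strand), chr3:109337547-109337796 (DPPA4, minus strand), chr6:104940715-104940964 (LIN28B, plus strand), chr3:181711675-181711924 (SOX2, plus strand), chr12:7789152-7789401 (NANOG, plus strand), chr3:46574285-46574534 (first start of TDGF1, plus strand) and chr3:46577538-46577787 (second start of TDGF1, which RefSeq lists as CRIPTO, plus strand).
ZFP42: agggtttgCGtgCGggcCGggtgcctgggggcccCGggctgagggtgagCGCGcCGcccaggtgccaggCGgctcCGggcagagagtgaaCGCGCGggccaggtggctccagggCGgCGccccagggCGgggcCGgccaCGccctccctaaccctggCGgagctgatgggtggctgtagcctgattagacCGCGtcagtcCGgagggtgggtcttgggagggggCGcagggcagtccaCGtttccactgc
DPPA2: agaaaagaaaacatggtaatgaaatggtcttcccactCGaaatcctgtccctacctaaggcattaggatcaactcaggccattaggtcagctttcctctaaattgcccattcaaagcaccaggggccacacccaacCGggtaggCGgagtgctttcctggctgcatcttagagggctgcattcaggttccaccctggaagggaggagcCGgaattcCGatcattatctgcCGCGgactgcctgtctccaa
DPPA4: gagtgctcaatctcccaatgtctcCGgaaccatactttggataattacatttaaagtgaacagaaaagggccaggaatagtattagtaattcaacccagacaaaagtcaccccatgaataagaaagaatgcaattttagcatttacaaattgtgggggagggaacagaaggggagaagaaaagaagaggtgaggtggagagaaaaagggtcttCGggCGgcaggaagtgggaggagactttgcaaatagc
LIN28B: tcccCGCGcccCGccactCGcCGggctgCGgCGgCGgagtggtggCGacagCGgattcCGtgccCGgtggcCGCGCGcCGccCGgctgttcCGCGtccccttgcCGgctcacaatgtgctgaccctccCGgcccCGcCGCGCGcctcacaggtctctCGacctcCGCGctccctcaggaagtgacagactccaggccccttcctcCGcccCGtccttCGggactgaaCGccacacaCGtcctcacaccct
SOX2: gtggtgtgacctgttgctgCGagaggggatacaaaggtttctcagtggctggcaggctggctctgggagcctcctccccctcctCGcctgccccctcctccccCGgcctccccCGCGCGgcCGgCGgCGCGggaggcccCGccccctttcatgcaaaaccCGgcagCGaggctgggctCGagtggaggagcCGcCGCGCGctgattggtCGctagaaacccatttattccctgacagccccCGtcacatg
NANOG: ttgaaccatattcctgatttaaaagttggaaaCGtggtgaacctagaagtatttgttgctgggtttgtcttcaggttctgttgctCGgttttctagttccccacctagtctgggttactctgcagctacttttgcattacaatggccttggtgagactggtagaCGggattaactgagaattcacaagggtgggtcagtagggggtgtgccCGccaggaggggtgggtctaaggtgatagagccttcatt
TDGF1, first start: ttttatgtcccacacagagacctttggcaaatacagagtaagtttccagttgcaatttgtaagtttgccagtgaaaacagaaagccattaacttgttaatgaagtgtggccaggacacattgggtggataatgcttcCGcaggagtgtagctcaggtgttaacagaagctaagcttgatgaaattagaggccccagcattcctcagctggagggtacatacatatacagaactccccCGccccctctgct
TDGF1, second start: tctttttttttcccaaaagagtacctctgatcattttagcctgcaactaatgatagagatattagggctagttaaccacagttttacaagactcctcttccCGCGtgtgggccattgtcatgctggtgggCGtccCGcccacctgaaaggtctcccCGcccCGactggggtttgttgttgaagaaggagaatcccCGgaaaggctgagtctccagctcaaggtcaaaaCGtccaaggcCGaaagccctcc

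These stretches held 33 CG dinucleotides before LIN28B, 23 before ZFP42, 20 before SOX2, 7 before DPPA2, 4 before NANOG and 3 before DPPA4, against a median of 11 over the 34943 promoters of the same length. TDGF1 had 2 before its first start and 9 before its second, and LIN28B had 6 before its further start downstream. The motif CCGG, which reads the same on both strands and which RRBS needs to make a fragment, occurred 5 times before ZFP42 and before LIN28B, 3 times before SOX2, 2 times before DPPA2 and 1 time before DPPA4 and the second start of TDGF1, and 58.4% of the promoters held it. NANOG, the first start of TDGF1 and the further start of LIN28B had 0 matches. No window of the table covered any of these starts, nor that of SOX2 with its 3 matches.

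Depth in the shared windows was 188844850 to 228919184 calls per library, with a median of 398 to 499 calls per window, and the mean β-value over all windows lay between 78.4% (5-aza-dc) and 80.4% (theophylline), with 79.4% in the vehicle control. A call is a cytosine in a read and not an independent molecule, but the 95% intervals and exact tests below count each call as independent. They cover only the counting error under that assumption. Where calls of the same read go together, the intervals are too narrow and the p-values too small. The marker genes of a pluripotent stem cell are described here, but their levels cannot check the cell type. In the vehicle control, 59.0% of the 22875 gene starts with a window were below 10%, as were most fibroblast starts below. Of the 8 markers listed, POU5F1, LIN28A, SALL4, DPPA4 and TDGF1 had a start below 10% in all 5 libraries at a start of RefSeq. The deposited start of POU5F1 was at 83.2% to 87.9%. SOX2 had 2 windows below 10% but none over its start, NANOG had none over its start, and ZFP42 was at 37.2% to 60.9%. The marker list did not hold LIN28B, which was below 10% at its RefSeq start, or DPPA2, which was methylated at its start at 73.7% to 81.6%. Fibroblasts, the cell type the line was made from, were not analysed here. Of 15 genes of fibroblasts, 7 had a window over the start, none of these was called after any chemical, and 6 were below 10% (lowest TWIST1, a transcription factor, at 0.725%, and FBN1, which encodes fibrillin, at 0.855%), while COL1A1 (a collagen chain, 8.0%) and TWIST2 (a transcription factor, 56.2%) were the highest in the vehicle control.

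**Figure D1:**
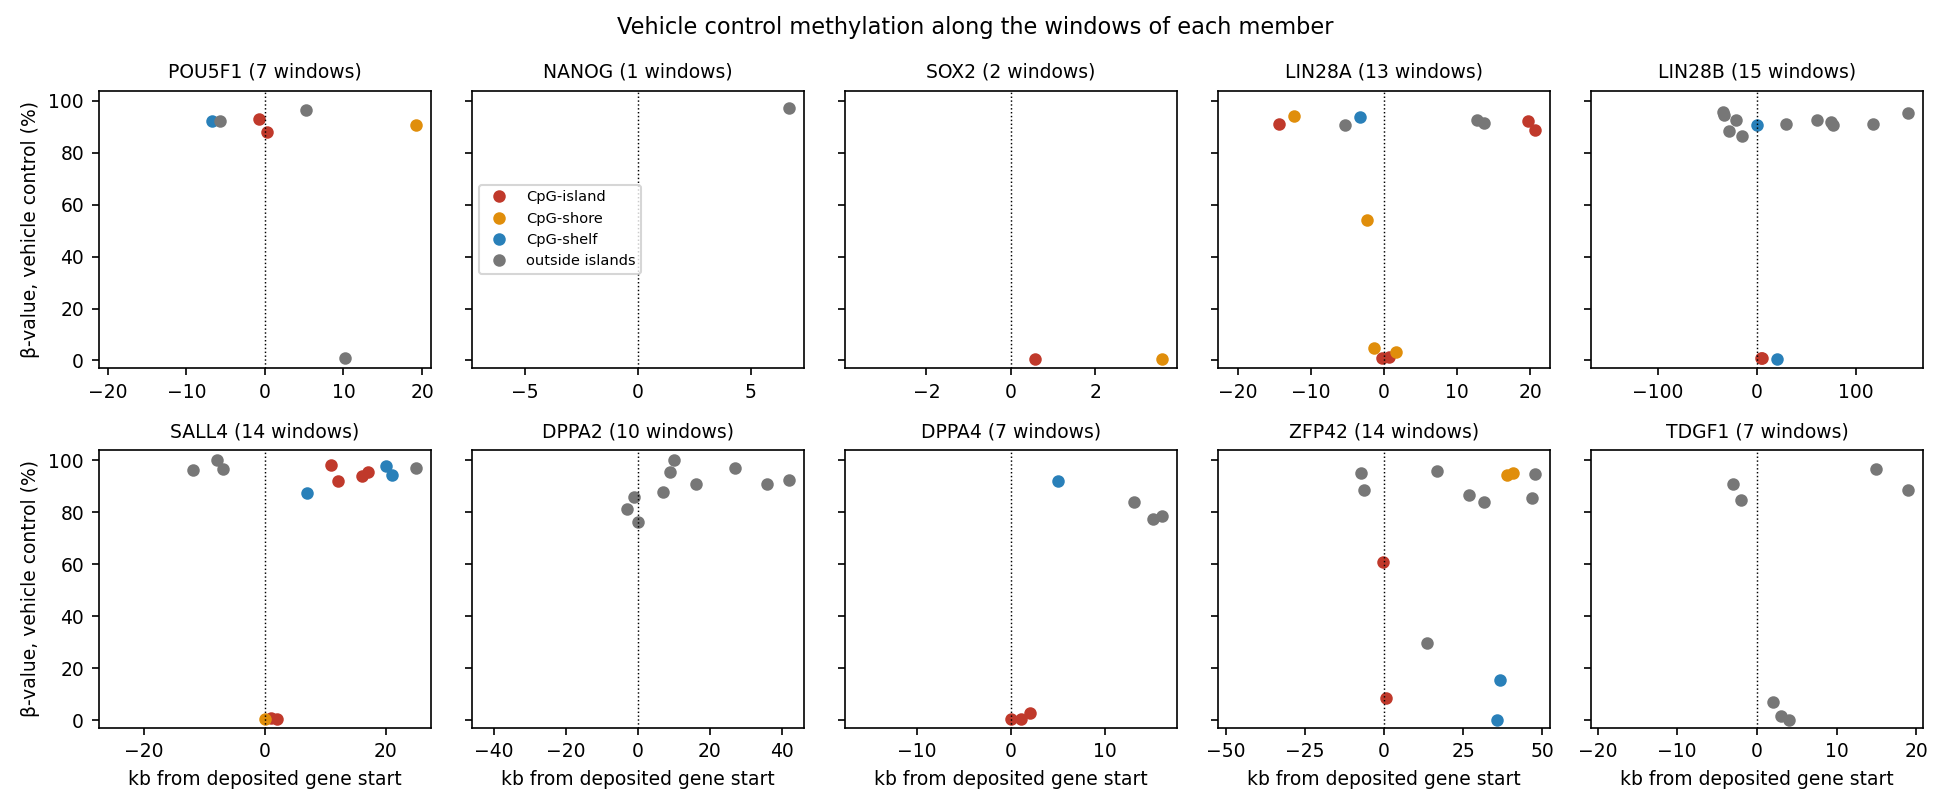
Methylation level (β-value, %) in the vehicle control for each of the 90 member windows against the distance of the window centre from the deposited gene start in kb, with 1 panel per gene and the dots coloured by the CpG annotation of the deposited table. Windows below 10% lay within 5 kb downstream of a start for SALL4, DPPA4, TDGF1 and SOX2 and on both sides of it for LIN28A, while every window of DPPA2 and the window of NANOG was above 70%.

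In the vehicle control, 21 of the 90 member windows (23.3%) were below 10%, 4 (4.44%) were between 10% and 70% and 65 (72.2%) were at 70% or above. Over all windows of the table, the shares were 9.56%, 6.35% and 84.1%. Each library gave 21, 4 and 65 member windows in these classes. Of the 10 windows over a member start, deposited or of RefSeq, 6 were below 10%, 1 was between and 3 were at 70% or above. The 32 other windows inside the genes divided into 12 low and 20 high, and the 48 windows outside the genes into 3 low, 3 intermediate and 42 high. Of the 21 member windows in CpG islands, 11 were low and 9 were high, so an island annotation alone did not mark a low level. The median range over the 5 libraries was 5.10 percentage points for a member window and 6.32 for all windows.

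The position taken as the start changed what was read for POU5F1 and LIN28B. With the starts in the deposited table, 7 members had a window over the start and 3 of these were below 10% in every library. With the starts of RefSeq, 8 members had such a window and 6 were below 10%. Over all 22875 genes with a window over the deposited start, 59.0% were below 10% and 30.6% were at 70% or above in the vehicle control.

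POU5F1 (ENSG00000204531, chr6:31164337-31180731 in the table, minus strand) encodes the factor OCT4 that is required for pluripotency. The window over its deposited start, the island window chr6:31180001-31181000, was methylated at 87.9% in the vehicle control, 84.1% with etoposide, 86.2% with propyl gallate, 87.3% with theophylline and 83.2% with 5-aza-dc, over 2226 to 2509 calls. RefSeq places the start 10049 bases away, and the window there, chr6:31170001-31171000, which the table annotated to the overlapping gene PSORS1C3, held 0.943%, 1.61%, 0.686%, 1.28% and 1.04% in the same order, over 951 to 1214 calls. The first of these windows was thus high and the second near 0 in all libraries. By Fisher's exact test (two-sided, Benjamini-Hochberg over all windows), which compares 2 libraries and not 2 conditions, the deposited start was lower by 4.68 points after 5-aza-dc (95% interval of the difference -6.68 to -2.67, adjusted p = 0.000108) and different by -3.78 points after etoposide (-5.78 to -1.81, adjusted p = 0.00266). Neither difference reached the minimum of 10 points. At the start of RefSeq no chemical passed the threshold (adjusted p from 0.45 to 0.944), and the largest difference, 0.663 points after etoposide, had an interval of -0.364 to 1.73. The next island window upstream, chr6:31181001-31182000, held 93.1% in the vehicle control and 95.3% after propyl gallate (exact test, adjusted p = 0.00187) and 95.4% after theophylline (adjusted p = 0.000933).

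SOX2 (ENSG00000181449, chr3:181711925-181714436), an HMG-box factor that binds DNA together with OCT4, had 2 windows and none over its start. The island window chr3:181712001-181713000, which begins just downstream of the start, held 0.427% in the vehicle control, 0.279% with etoposide, 0.263% with propyl gallate, 0.804% with theophylline and 0.515% with 5-aza-dc, over 2567 to 3743 calls. The shore window chr3:181715001-181716000 held 0.395%, 0.652%, 0.758%, 1.26% and 0.495%. All of these levels were near 0, and adjacent libraries in the order of the levels did not differ beyond counting error in either window. The lowest and the highest library of the island window, propyl gallate and theophylline, differed by 0.540 points (0.190 to 0.942). In the shore window, the vehicle control and theophylline differed by 0.866 points (-0.0646 to 2.10). Because the levels were so low, small differences gave large ratios: the mean log2 β-value ratio after theophylline was 1.29 over 2 windows while the mean β-value differed by only 0.621 points (0.0873 to 1.16).

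NANOG (ENSG00000111704, chr12:7787794-7799146), a homeodomain factor of the same network, had a single window, chr12:7794001-7795000 in the gene body. It was methylated at 97.2% in the vehicle control, 94.6% with etoposide, 93.4% with propyl gallate, 91.9% with theophylline and 96.6% with 5-aza-dc, over 425 to 541 calls. The vehicle control was the highest library, and the difference after theophylline was -5.37 points (-8.68 to -2.51, exact test, adjusted p = 0.00378). Nothing can be said of the NANOG promoter from these windows.

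LIN28A (ENSG00000131914, chr1:26410817-26429728) and LIN28B (ENSG00000187772, chr6:104936616-105083332) encode RNA-binding proteins that block the maturation of let-7 microRNAs. The window over the LIN28A start, chr1:26410001-26411000, held 0.821% in the vehicle control, 1.88% with etoposide, 2.86% with propyl gallate, 2.03% with theophylline and 0 of 302 calls with 5-aza-dc, which allows a share of up to 0.993% (3 calls of the total, where the Wilson interval reaches 1.26%). The next window, chr1:26411001-26412000, lay between 1.14% and 1.60% over 3048 to 3889 calls. These low levels were limited to the windows around the start: the shore window centred at -2317 bases was at 50.8% to 57.8%, and the island window at -14317 bases was at 87.7% to 91.1%. Inside the gene, the window chr1:26423001-26424000 held 92.8% in the vehicle control, 95%, 94.3% and 96.0% after etoposide, propyl gallate and theophylline and 85.5% after 5-aza-dc. Only 5-aza-dc was below the control there, with a difference of -7.26 points (-9.92 to -4.69, exact test, adjusted p = 1.66e-06). Among the member windows with at least 30 calls, the largest rise in β-value after 5-aza-dc was downstream of the gene at chr1:26431001-26432000, an island window annotated to DHDDS, with 88.8% in the control and 98.2% after 5-aza-dc over 89 and 46 calls (exact test, adjusted p = 0.238).

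LIN28B resembled POU5F1 in having a methylated deposited start and an unmethylated start in RefSeq, 4349 bases apart. The deposited start, in the shelf window chr6:104936001-104937000, held 90.7% in the vehicle control, 89.4% with etoposide, 90.4% with propyl gallate, 87.2% with theophylline and 85.9% with 5-aza-dc. The last was lower by 4.85 points (-7.78 to -2.02, exact test, adjusted p = 0.00626). The RefSeq start, in the island window chr6:104940001-104941000 that the table annotated to LIN28B-AS1, held 0.792%, 0.653%, 0.847%, 1.47% and 0.774%, over 3636 to 5680 calls. Theophylline was the highest there, 0.679 points above the control (0.272 to 1.11, exact test, adjusted p = 0.0112). No window covered a further RefSeq start 20491 bases downstream of the deposited one.

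SALL4 (ENSG00000101115, chr20:51782331-51802521, minus strand), a zinc finger factor that binds with OCT4, had unmethylated windows at its start and methylated islands farther inside the gene. Its start window chr20:51802001-51803000 held 0.536% in the vehicle control, 1.15% with etoposide, 0.819% with propyl gallate, 0.715% with theophylline and 1.15% with 5-aza-dc, over 2433 to 3368 calls, and the 2 island windows that follow it inside the gene were at or below 1.16% in all libraries. Farther inside the gene, 4 island windows were at 89.4% to 98.4%. In 1 of these, chr20:51791001-51792000, the vehicle control was the highest library with 98.4%, followed by theophylline with 94.8%, propyl gallate with 94.4%, 5-aza-dc with 90.8% and etoposide with 90.4%. The adjusted p was 1.01e-05 for etoposide (a difference of -7.99 points, the largest fall in β-value after this chemical among the member windows with at least 30 calls) and 3.28e-06 for 5-aza-dc (-7.55 points). Upstream of the gene, chr20:51809001-51810000 held 96.7% in the control, 91.1% after etoposide (exact test, adjusted p = 0.000495) and 89.3% after 5-aza-dc (adjusted p = 1.33e-05), while chr20:51810001-51811000 held 100% in the control and 87.9% after theophylline, a difference of -12.1 points over 83 and 86 calls that did not pass the threshold (adjusted p = 0.0126).

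DPPA2 (ENSG00000163530, chr3:109293788-109316517, minus strand) and DPPA4 (ENSG00000121570, chr3:109326144-109337546, minus strand) are neighbours that encode related SAP-domain proteins of pluripotent cells, and their starts were at opposite levels. The DPPA2 start, chr3:109316001-109317000, which is in no CpG island, held 76.4% in the vehicle control, 76.3% with etoposide, 77.9% with propyl gallate, 81.6% with theophylline and 73.7% with 5-aza-dc, over 1920 to 2768 calls. The DPPA4 start, chr3:109337001-109338000 in an island, held 0.525%, 0.165%, 0.58%, 1.15% and 0.382% in the same order, over 755 to 1110 calls. At DPPA2 theophylline stood above the control by 5.16 points (2.81 to 7.49, exact test, adjusted p = 0.000413) and above the next library in order, propyl gallate, beyond counting error, and 5-aza-dc was the lowest library but not past the threshold against the control (-5.10 to -0.401, adjusted p = 0.0844).

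Upstream of the DPPA2 start, the window chr3:109317001-109318000 held 86.1% in the vehicle control (403 calls), 91.8% with etoposide (343 calls), 97.8% with propyl gallate (461 calls), 90.3% with theophylline (285 calls) and 92.7% with 5-aza-dc (375 calls). All 4 chemicals were above the vehicle control, as in 15.6% of the member windows and 19.7% of all windows. Propyl gallate was called higher, by 11.7 points (8.21 to 15.6, exact test, adjusted p = 9.84e-09), and its share of the library's calls in this window was 1.28 times that of the control. The other 3 chemicals had adjusted p from 0.0157 to 0.299. Downstream of the gene, chr3:109280001-109281000 held 91.0% in the control and was lower by 6.61 points after propyl gallate (exact test, adjusted p = 0.000289), so the windows of DPPA2 did not move in a single direction after this chemical.

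TDGF1 (ENSG00000241186, chr3:46574534-46582457) encodes Cripto, the co-receptor of the TGF-β ligand Nodal. The window over the second start of RefSeq, chr3:46577001-46578000, held 1.61% in the vehicle control, 0.107% with etoposide, 1.08% with propyl gallate, 1.39% with theophylline and 1.12% with 5-aza-dc. Etoposide was the lowest library, with 1 methylated call of 792 recovered calls against 17 of 1053 in the control (exact test, adjusted p = 0.0105). The β-value is lower than this share because it was deposited after scaling and rounding of the calls. The difference was -1.51 points (-2.45 to -0.647), and the log2 ratio of this window, -3.91, made up most of the mean log2 β-value ratio of TDGF1 after etoposide (-0.68 over 6 windows). The mean β-value of the gene differed by 0.649 points (-1.73 to 3.03). Among the member windows with at least 30 calls, the largest rises in β-value after etoposide and theophylline were also at TDGF1, but in thinly covered windows: 84.8% to 95.9% at chr3:46572001-46573000 after etoposide (105 and 103 calls, exact test, adjusted p = 0.0465) and 88.7% to 98.7% at chr3:46593001-46594000 after theophylline (53 and 65 calls, adjusted p = 0.148).

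**Figure D2:**
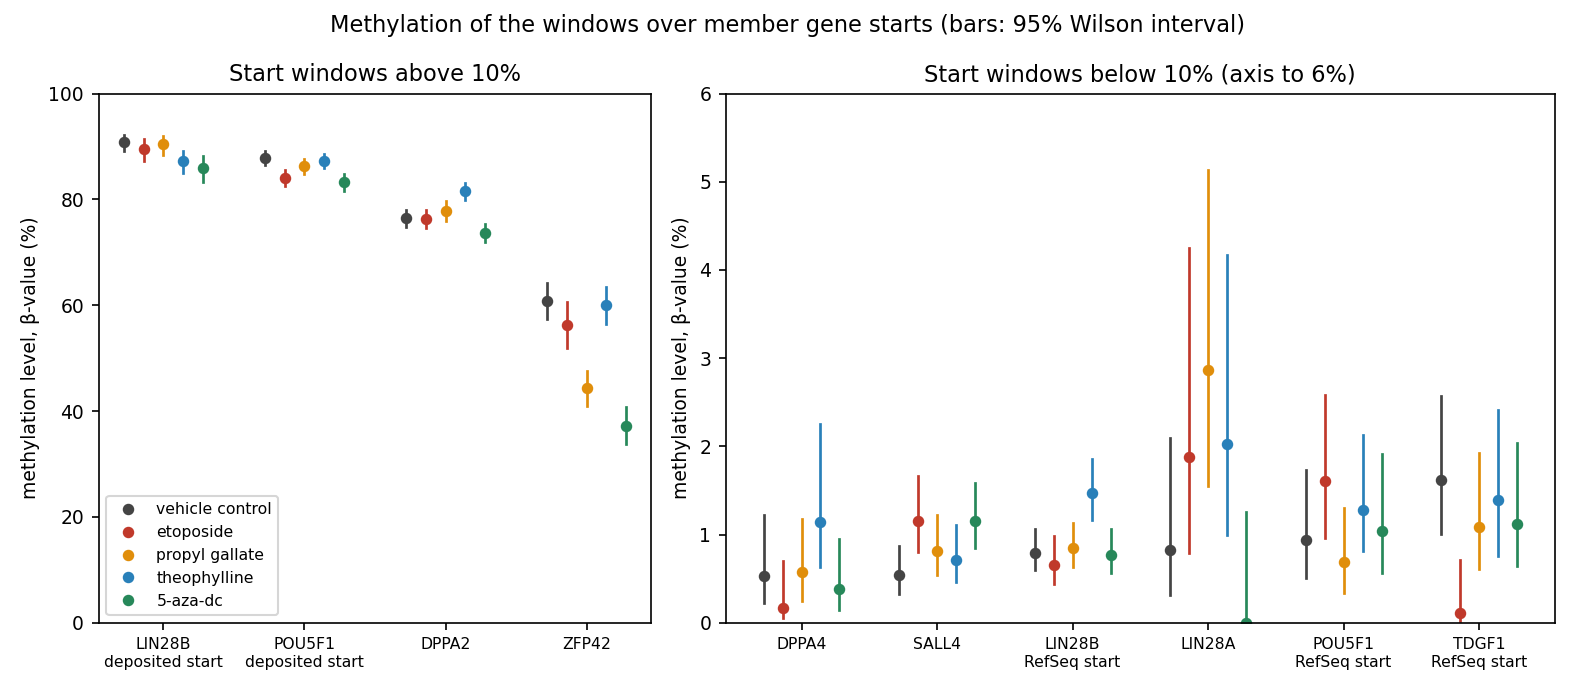
Methylation level (β-value, %) of the 10 windows over a member start in the 5 libraries, with 95% Wilson intervals as bars. The left panel holds the 4 windows above 10% on an axis to 100%, the right panel the 6 windows below 10% on an axis to 6%. ZFP42 after propyl gallate (44.3%) and 5-aza-dc (37.2%) is set apart from the other libraries, as is DPPA2 after theophylline (81.6%). Among the low windows, the LIN28B start of RefSeq after theophylline (1.47%) has an interval above those of the other libraries. The interval of TDGF1 after etoposide (0.107%) lies below that of the control, and that of LIN28A after 5-aza-dc below that after propyl gallate. Most of the other intervals of the low windows overlap.

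ZFP42 (ENSG00000179059, chr4:187995771-188005046), which encodes the zinc finger protein REX1, a classical marker of undifferentiated cells, had the member window that varied most among the libraries. Its start window chr4:187995001-187996000, in an island, held 60.9% in the vehicle control (462 of 759 calls, 95% Wilson interval 57.4% to 64.3%), 56.3% with etoposide (286 of 508 calls, 52.0% to 60.5%), 44.3% with propyl gallate (395 of 893 calls, 41.0% to 47.5%), 60.0% with theophylline (462 of 770 calls, 56.5% to 63.4%) and 37.2% with 5-aza-dc (267 of 718 calls, 33.7% to 40.8%). The vehicle control, theophylline and etoposide formed the upper end of the order and did not differ from their neighbours beyond counting error, whereas propyl gallate lay below etoposide by 12.0 points (6.63 to 17.4) and 5-aza-dc below propyl gallate by 7.12 points (2.22 to 11.8). Against the control, Fisher's exact test gave differences of -23.7 points after 5-aza-dc (-28.5 to -18.7, adjusted p = 5.77e-17) and -16.6 points after propyl gallate (-21.3 to -11.8, adjusted p = 4.86e-09). For etoposide (-4.61 points, -10.1 to 0.947, exact test, adjusted p = 0.29) and theophylline (-0.915 points, -5.76 to 4.02, adjusted p = 0.904) the intervals included 0. The window took 1.31 times the share of calls of the control after propyl gallate and 1.12 times after 5-aza-dc, but 0.811 times after etoposide. The part of such unequal coverage in the levels was not tested.

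To set the ZFP42 start beside windows of like level, the 4089 windows of the table with a mean β-value of 40% to 60% over the 5 libraries and at least 100 calls in each were taken, as the mean of the ZFP42 start was 51.7%. After 5-aza-dc their median difference from the control was -2.72 points, 12.5% of them were called lower, and 0.831% were lower by as much as the ZFP42 start. After propyl gallate the median difference was 0.201 points, 4.21% were called lower and 1.12% were lower by as much. This comparison was chosen after the ZFP42 values were known and is a description.

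The next window downstream, chr4:187996001-187997000, covers the rest of the island and part of the gene body. It held 8.64% in the vehicle control, 7.59% with etoposide, 7.49% with propyl gallate, 3.96% with theophylline and 2.85% with 5-aza-dc, over 1305 to 1793 calls. Theophylline (-4.69 points, exact test, adjusted p = 3.83e-06) and 5-aza-dc (-5.80 points, -7.40 to -4.21, adjusted p = 1.08e-09) were lower than the control, without reaching 10 points. The order of the libraries thus differed between the neighbouring windows: propyl gallate was low in the first and close to the control in the second, and theophylline the reverse.

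Of the 14 ZFP42 windows, 12 lie outside the gene and were annotated to it by symbol. Among them, chr4:188032001-188033000 held 15.6% in the vehicle control, 20.2% with etoposide, 22.1% with propyl gallate, 21.2% with theophylline and 20.3% with 5-aza-dc. All 4 chemicals passed an adjusted p of 0.01 there (exact test, adjusted p from 7.32e-05 to 0.00362). How many of all windows did so was not counted. The vehicle control was the low library here and the 4 chemicals did not differ between neighbours in order. At chr4:188031001-188032000, the control had 0 of 251 calls methylated, which allows a share of up to 1.20%, against 6.44% with etoposide (exact test, adjusted p = 0.000836), 3.83% with propyl gallate, 1.12% with theophylline and 2.16% with 5-aza-dc. Since all comparisons share the 1 control library, a value that is particular to that library enters all 4 of them. All 4 chemicals were higher than the control in 15.6% of the member windows and 19.7% of all windows, and lower in 18.9% and 14.8%.

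**Figure D3:**
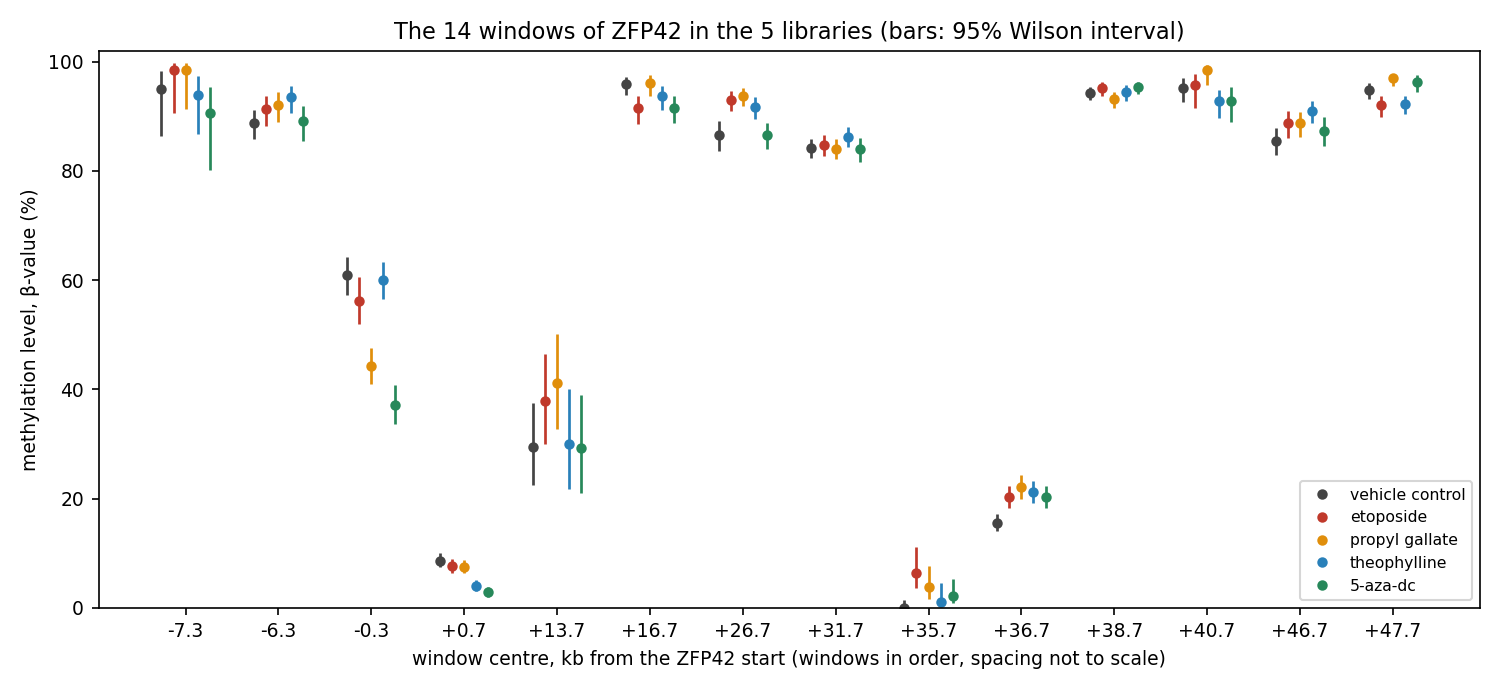
Methylation level (β-value, %) of the 14 windows of ZFP42 in the 5 libraries, with 95% Wilson intervals as bars, ordered by the distance of the window centre from the start in kb. At the start window propyl gallate (44.3%) and 5-aza-dc (37.2%) lie below the other libraries, and in the window with 15.6% in the vehicle control that library lies below all 4 chemicals.

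The counts of called windows among the members were small for every chemical. At the main threshold, an adjusted p below 0.01 together with 10 points or more, etoposide gave 0 higher and 0 lower of 90 windows, where 1.36% and 0.956% of all windows were called higher and lower. Propyl gallate gave 1 higher (DPPA2) and 1 lower (ZFP42), against 1.34% and 0.88% of all windows. Theophylline gave 0 and 0, against 1.59% and 0.681%, and 5-aza-dc gave 0 higher and 1 lower (ZFP42), against 0.876% and 2.76%. A share of 1 window in 90 is 1.11%, so these counts lay near the background and are not a result about the members as a group. The counts of lower windows were also limited by level. The 21 member windows below 10% in the vehicle control (23.3%, against 9.56% of all windows) could not fall by 10 points. The counts of higher windows were limited as well. The median level in the vehicle control was 90.8% for the member windows and 91.0% for all windows, and windows above it could not rise by 10 points.

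Without the minimum difference, 7 member windows (3 higher and 4 lower) passed after etoposide, or 7.78% against 10.1% of all windows. After propyl gallate 6 passed (4 higher and 2 lower), or 6.67% against 10.3%. After theophylline 8 passed (6 higher and 2 lower), or 8.89% against 11.0%, and after 5-aza-dc 11 passed (2 higher and 9 lower), or 12.2% against 14.0%. These 9 lower windows after 5-aza-dc were the start and the next window of ZFP42, the deposited starts of POU5F1 and LIN28B, a body window of LIN28A, 3 windows of SALL4 and a downstream window of DPPA2.

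Averaged over all 90 windows with equal weight, the β-value differed from the vehicle control by 0.159 points with etoposide (-0.365 to 0.683), 0.290 with propyl gallate (-0.18 to 0.76), 0.642 with theophylline (0.159 to 1.12) and -0.533 with 5-aza-dc (-1.05 to -0.0149). The same means over all windows of the table were 0.513, 0.566, 0.975 and -1.03 points, in the same directions, although the member mean after propyl gallate was -0.453 points with overlapping windows only and -0.432 with all calls pooled. Of the member windows, 47, 48, 57 and 37 were higher and 42, 40, 32 and 52 lower after the 4 chemicals in that order. Their medians, 0.304, 0.100, 0.393 and -0.292 points, had the same signs as the medians over all windows, 0.338, 0.358, 0.695 and -0.637. On the log2 scale used by the study, the mean ratio over the windows above 0 was -0.02, 0.01, 0.02 and -0.02.

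The windows over the 10 starts had mean differences of -0.949 points with etoposide, -1.55 with propyl gallate, 0.294 with theophylline and -3.68 with 5-aza-dc. The ZFP42 start alone, at -16.6 and -23.7 points, accounts for all of the mean after propyl gallate and much of that after 5-aza-dc. Of the 10 start windows, 5 were higher and 5 lower after propyl gallate, and 2 were higher and 8 lower after 5-aza-dc. The medians over these windows were -0.250, -0.101, 0.260 and -0.659 points.

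By gene, the mean over the windows moved in both directions after every chemical. After 5-aza-dc, 5 genes were higher and 5 lower, and the interval excluded 0 for POU5F1 (-2.94 points, -4.87 to -1.01), ZFP42 (-2.11, -3.46 to -0.768) and SALL4 (-1.93, -2.81 to -1.05), all lower. After theophylline 7 were higher and 3 lower, with LIN28B (2.08 points, 0.622 to 3.53), LIN28A (1.16, 0.0152 to 2.30) and SOX2 above 0 and NANOG below. After etoposide 6 were higher and 4 lower, with ZFP42 above 0 (1.73 points, 0.471 to 2.99) and SALL4 (-1.01, -1.87 to -0.145) and NANOG (-2.66, -5.18 to -0.13) below. After propyl gallate 5 were higher and 5 lower, with ZFP42 above 0 (1.81 points, 0.594 to 3.03) and NANOG below (-3.86, -6.46 to -1.26). The ZFP42 mean after propyl gallate was above 0 although its start was lower, and 10 of its 14 windows were higher. With only the windows that overlap the gene it was -8.87 points, and that after etoposide was -2.83 points. With all calls of a gene pooled, the sign also changed for LIN28B after theophylline (-2.69 points), SALL4 after etoposide (0.660 points) and ZFP42 after 5-aza-dc (0.886 points), so the direction of these gene means depended on the windows and weights used.

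**Figure D4:**
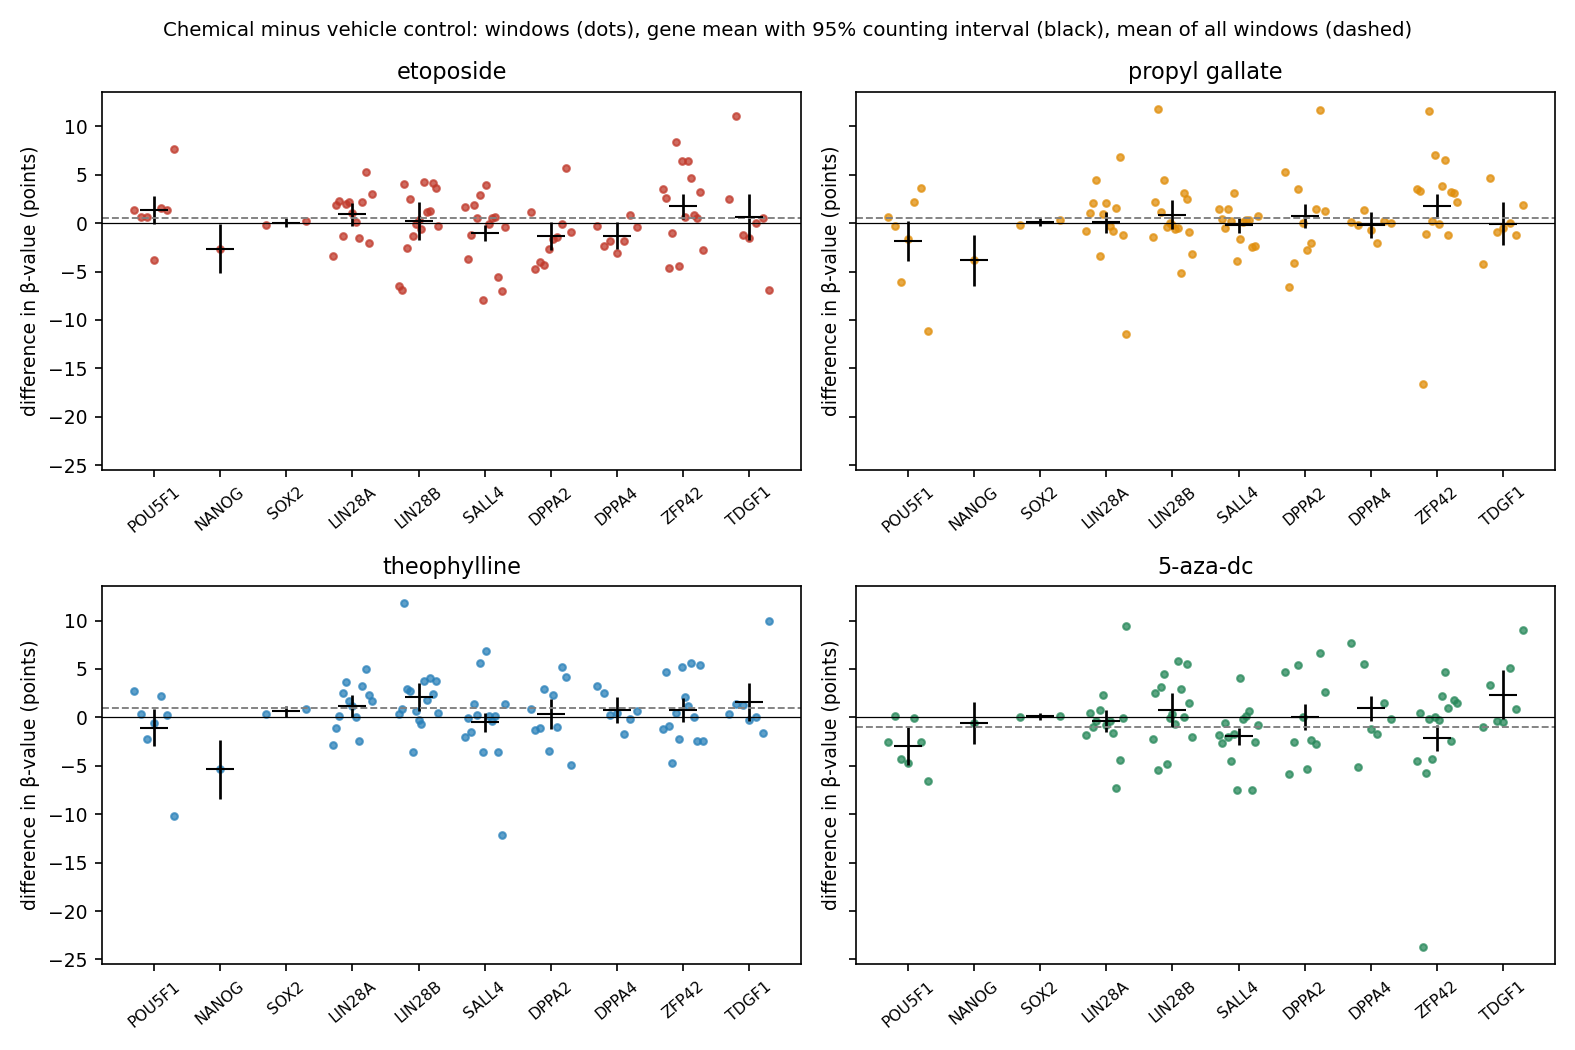
Difference in β-value (percentage points, chemical minus vehicle control) for every window of the 10 members, with 1 panel per chemical. Dots are windows, black marks are the mean over a gene's windows with its 95% counting interval, and the dashed line is the mean over all windows of the table. The ZFP42 start stands at -16.6 points after propyl gallate and -23.7 after 5-aza-dc, below every other member window.

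Other genes of the pluripotent state, 36 in all, gave 557 windows by the same rule. Their mean differences were 0.574 points with etoposide, 0.581 with propyl gallate, 0.966 with theophylline and -0.884 with 5-aza-dc, and 54, 47, 61 and 72 windows passed an adjusted p of 0.01, or 9.69%, 8.44%, 11.0% and 12.9% against the 10.1%, 10.3%, 11.0% and 14.0% of all windows. With the minimum of 10 points, 10, 6, 11 and 6 were called higher, or 1.80%, 1.08%, 1.97% and 1.08% against 1.36%, 1.34%, 1.59% and 0.876% of all windows. Called lower were 4, 2, 4 and 4, or 0.718%, 0.359%, 0.718% and 0.718% against 0.956%, 0.88%, 0.681% and 2.76%. A window over the start was present for 26 of the 36 genes, and 20 were below 10%, 3 between 10% and 70% and 3 at 70% or above in the vehicle control. The lowest was PRDM14, a repressor of differentiation genes, with 0.468%. The highest were DPPA5, an RNA-binding protein, with 93.8% and DPPA3, a maternal factor that limits the methylation machinery, with 88.9%.

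Only the start of LEFTY1, an inhibitor of Nodal signalling, was called among these 26. It held 45.0% in the vehicle control, 47.6% with etoposide, 39.6% with propyl gallate, 39.8% with theophylline and 30.3% with 5-aza-dc, where the difference was -14.8 points (Fisher's exact test, adjusted p = 4.85e-15). Like ZFP42, it was of intermediate level and lowest after 5-aza-dc. After this chemical 2.76% of all windows were called lower, as were 12.5% of the 4089 windows with a mean of 40% to 60%. The call of 1 start among 26 is therefore not a result about these genes as a group.

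The levels of the deposited POU5F1 start were also compared with those of other gene starts over the 5 libraries. For this start, the closest of the 18531 genes with at least 100 calls in every library were CIBAR2, BRWD1P1 and UICLM. Their Euclidean distances were 1.84, 1.9 and 2.38 points, and 0 genes lay within 1 point. A distance of 1 point is within counting error, as the 95% Wilson interval of this start in the vehicle control was 86.5% to 89.1%. The 0 is therefore no measure of how rare these levels are.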

How the data were processed

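RRBS libraries of human iPSCs were analysed, 1 per group. The authors trimmed the reads with Trim Galore 0.5.0, aligned them with Bismark 0.20.0 to hg38, counted cytosines in windows of 1000 bases with methylKit 1.10.0, scaled coverage between libraries, removed windows below a coverage of 10 or above the 99.9th percentile and kept the windows shared by all libraries. The deposited counts of the vehicle control were not scaled. The deposited calls of the other libraries are a score, counts multiplied by a factor (etoposide 1.18, propyl gallate 1.09, theophylline 1.15, 5-aza-dc 1.21) and rounded. The deposited β-value is a fraction computed by them after scaling. Tables of single libraries held the same values in all 288391 windows.

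The factors were recovered from whole numbers missing among the coverages, and calls were divided back (at least 99.97% of coverages were returned by scaling again). The planned Fisher's exact test on counts was run on these recovered calls, two-sided, with Benjamini-Hochberg adjustment over all windows, and a window was called at an adjusted p under 0.01 and at least 10 percentage points. Tested on simulated data for 5-aza-dc against the vehicle control over 288391 windows, 187 of 200 windows changed by 20 points and 0 unchanged windows were called. The simulated calls were independent and had no spread between libraries. The count of 0 therefore gives no rate of false calls for the real libraries. Wilson and Newcombe intervals and binomial variances gave the 95% intervals. Python 3.11.15, scipy 1.17.1, statsmodels 0.14.6 and pandas 2.3.3 were used.

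For 97.4% of 32813 genes, the start or the end lay within 1000 bases of its position in GRCh38.p14. This share is no measure of how well the starts alone match. TDGF1 was matched to the RefSeq symbol CRIPTO by synonym. The windows named are those over a start, those called, and the largest rise and fall per chemical with at least 30 calls. Other windows were named after their values were seen, for all members from those with an adjusted p under 0.01. The members, lists and rules were chosen with earlier results of these data known. Alternatives covered the choice of windows, minimum calls, weights, reference, thresholds and the gene start.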

Additional observations from a re-analysis of the deposited data

How the results depend on the processing

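No paired analysis was possible because each group had 1 library and the labels gave no replicates to pair. Of the results that summarise the members, 96 values under an alternative moved by less than counting error or kept their count and 19 moved. Without a minimum difference, 7, 6, 8 and 11 member windows were called after etoposide, propyl gallate, theophylline and 5-aza-dc. With at least 25 points, 0 were called after propyl gallate and 0 after 5-aza-dc, and with the calls as deposited 1 was called after theophylline. Without the ZFP42 windows, which was chosen after seeing the data, 1 was called after propyl gallate and 0 after 5-aza-dc. The mean difference over all member windows after propyl gallate changed sign, to -0.453 points with overlapping windows only and to -0.432 with all calls pooled. Pooled calls gave 1.74 points after theophylline and -1.44 after 5-aza-dc, and only the windows annotated by symbol gave -1.06 after 5-aza-dc. With the starts of RefSeq, also chosen after seeing the data, 6 members were below 10% at their start in each of the 5 libraries.

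For single genes, 627 values moved by less than counting error, 71 moved and 7 reversed. Pooling all calls reversed LIN28B after theophylline (-2.69 points), SALL4 after etoposide (0.660) and ZFP42 after 5-aza-dc (0.886), and the median over windows reversed SALL4 after etoposide (0.185). Overlapping windows only reversed ZFP42 after etoposide (-2.83) and propyl gallate (-8.87). Taking means over the windows before the ratio and the log2, which was chosen after seeing the data, turned TDGF1 after etoposide to 0.018. The cause of these changes was not tested, except that pooling weights windows by their calls and that the overlap rule leaves out windows far from the gene. Depth limits the windows near 0, where few methylated calls set the level, and the windows below 100 calls.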
